A study of Mus musculus with 8 samples.

Results

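The genes described here are MAPK phosphatases and mRNA decay factors, 10 of the 24584 genes counted in mouse lung. They were chosen by name for their function, as dual-specificity phosphatases (Dusp2, Dusp4, Dusp5, Dusp6, Dusp10 and Dusp16) or as RNA-binding factors of AU-rich or stem-loop elements (Zfp36, Zfp36l1, Zfp36l2 and Zc3h12a). Earlier results of these data were known when this choice was made. All 10 were found in the count and FPKM tables, and all 10 had enough counts to be among the 15706 genes tested.

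Lung RNA was sequenced from male ICR mice aged 6 to 8 weeks, whose labels give a wild-type genotype. In the LPS group, 4 mice received LPS of Escherichia coli at 5 mg/kg by intraperitoneal injection. In the LPS + Tan group, 4 mice received tangeretin, a citrus flavonoid, at 50 mg/kg by the same route 30 min before the same dose of LPS. Lungs were taken 12 h after LPS in both groups, no vehicle is named for the LPS group, and no untreated group or group given tangeretin alone was analysed here. The libraries held 38895654 to 39931970 counted reads, and the 10 genes had between 259 and 15945 reads in each. The labels number the samples of each group but give no other link between them and animals, so p-values measure the spread between these samples.

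MAPK phosphatases remove phosphate from activated ERK, JNK and p38 kinases, and many of their genes are themselves switched on by the pathway, which makes them a negative feedback. Proteins of the ZFP36 family bind AU-rich elements in the 3′ UTR of cytokine mRNAs and recruit the deadenylation machinery, while the endonuclease encoded by Zc3h12a cleaves mRNAs at stem-loops. In lung exposed to LPS, both arms limit how long inflammatory signals and their mRNAs last.

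Zfp36 was lower in LPS + Tan mice than in LPS mice, and it was the only member of the 10 with an unadjusted p below 0.05 in edgeR's quasi-likelihood test. Over all genes tested, 804 of 15706 (5.12%) had such a p, 353 of them (2.25%) lower and 451 (2.87%) higher in LPS + Tan, so that a count of 1 in 10 is near the background and is no result about the members as a set. At an adjusted p below 0.05, edgeR called 0 members and 0 of all genes (0%). DESeq2 called 35 genes and the likelihood ratio test of edgeR 23 at that level, again with 0 of the 10 members among them. The rule of the study, an unadjusted p below 0.05 with an absolute log2 fold change above 1, was met by 0 members and by 0.649% of all genes. CPM, the read counts per 1000000 counts of a library after scaling by TMM, did not overlap between the groups in 1 member, Zfp36, against 2.73% of all genes, or 1.15% when only those lower in LPS + Tan are counted. The median log2 fold change of LPS + Tan against LPS was -0.10 over the 10 members and 0.0070 over all genes tested, and it was negative in 7 of the 10 and in 48.2% of all genes. For none of the 10 did the 95% interval of the difference reach a 2-fold change in either direction.

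**Figure D1:**
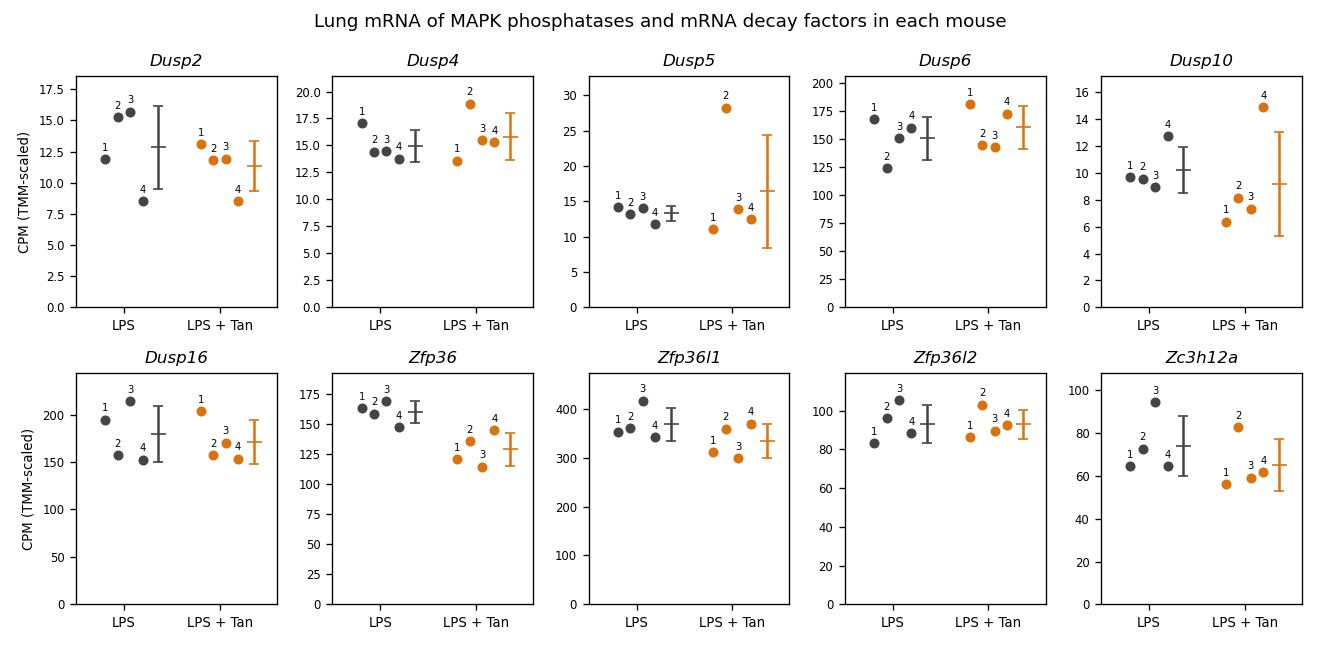
CPM of the 10 genes in each sample (vertical axes from 0), with grey points for LPS, orange points for LPS + Tan and the replicate number above each point. The bar beside each group gives its mean and SD (n = 4). The points of the groups are apart for Zfp36, where the lowest LPS sample is at 148 and the highest LPS + Tan sample at 145, and they overlap for the other genes.

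Among the decay factors, Zfp36 encodes tristetraprolin, the founding member of the family, which destabilizes Tnf mRNA and the mRNA of Zfp36 itself. The gene lies at chr7:28376784-28379228 in GRCm38. Its CPM was 164, 159, 169 and 148 in LPS samples 1 to 4 and 121, 136, 115 and 145 in LPS + Tan samples 1 to 4. The LPS + Tan values all lay under the lowest LPS value, also without TMM scaling and in FPKM (reads per gene length and library size), but LPS + Tan 4 came within 2.53 CPM of LPS 4, which is 0.275 times the SD of the LPS group. The means were 159.8 ± 9.23 in LPS and 129 ± 13.8 in LPS + Tan (SD, n = 4). LPS + Tan differed from LPS by -0.31 on the log2 scale (SE 0.094, 95% interval -0.52 to -0.10), or by -19.2%, and edgeR gave an unadjusted p of 0.00828 (adjusted 0.924). It ranked 138 of 15706 genes by p, and in bulk lung RNA fewer cells of a type and less RNA per cell cannot be told apart. Its unadjusted p was below 0.05 in each of the 19 alternative analyses, including each of the 8 in which a sample was left out, while its adjusted p was 0.333 by DESeq2 and was at least 0.233 over all alternatives.

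Zfp36l1, a paralog that acts on AU-rich mRNAs in lymphoid cells and in the developing vasculature, had a CPM of 353, 360.5, 417 and 342 in LPS samples and 311, 359, 299 and 369.6 in LPS + Tan samples. LPS 3 was highest and LPS + Tan 1 and 3 were lowest, but LPS + Tan 2 and 4 lay inside the LPS range. On the log2 scale the difference was -0.14 (SE 0.10, adjusted p 0.938 by edgeR), between -0.19 without LPS + Tan 4 and -0.072 without LPS 3. Zfp36l2, the paralog needed for early development and blood stem cells, had a CPM of 83.1, 96.1, 106 and 88.4 in LPS and 86.2, 103, 89.8 and 92.5 in LPS + Tan. All LPS + Tan values lay within the LPS range, and the log2 fold change of -0.0058 (SE 0.096, adjusted p 0.998 by edgeR) took a positive sign under upper-quartile scaling, without scaling factors, on FPKM and without LPS 2, LPS 3, LPS + Tan 1 or LPS + Tan 3.

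Zc3h12a encodes regnase-1, which cleaves stem-loops in Il6 and other mRNAs. Its CPM was 64.5, 72.8, 94.5 and 64.4 in LPS samples and 56.2, 83.0, 59.3 and 61.7 in LPS + Tan samples. LPS + Tan 1, 3 and 4 were below all LPS samples, and LPS + Tan 2 was above all of them except LPS 3. Its log2 fold change of -0.19 (SE 0.16, adjusted p 0.947 by edgeR) was -0.33 without LPS + Tan 2, where edgeR gave an unadjusted p of 0.0403, and -0.049 without LPS 3, which was the highest sample. The 4 decay factors thus had negative log2 fold changes with a median of -0.16, with the change of sign of Zfp36l2 given above, and 1 of them was lower at the unadjusted threshold, against 2.25% of all genes lower at it and 48.2% with a negative log2 fold change.

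The ZFP36 family was also compared within each sample, per length. Zfp36 made up 39.5%, 37.8%, 36.1% and 37.4% of the summed FPKM of the 3 family genes in LPS samples and 34.8%, 33.9%, 34.1% and 35.4% in LPS + Tan samples. The shares of the groups did not overlap, and their means were 37.7% ± 1.39 and 34.5% ± 0.675 (SD, n = 4). The share of Zfp36l1 was 51.3% ± 0.954 in LPS and 53.0% ± 0.333 in LPS + Tan, and that of Zfp36l2 10.97% ± 0.638 and 12.5% ± 0.892, with overlapping values for both. A share does not depend on the scaling between libraries. It was computed from the same reads as the difference in Zfp36, so it is a description of it and was not tested.

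Dusp5 and Dusp6 encode the phosphatases with a preference for ERK, the first in the nucleus and the other in the cytoplasm. The CPM of Dusp5 was 14.2, 13.2, 14.0 and 11.8 in LPS samples and 11.1, 28.2, 13.9 and 12.5 in LPS + Tan samples. LPS + Tan 2 stood alone at 1.99 times the next highest sample, with 1110 reads, and the other LPS + Tan samples overlapped the LPS group. Its log2 fold change of 0.30 (SE 0.26, adjusted p 0.950 by edgeR) turned to -0.093 without LPS + Tan 2. The CPM of Dusp6 was 168, 124, 151 and 160.3 in LPS and 182, 145, 143 and 173 in LPS + Tan. LPS 2 was lowest and LPS + Tan 1 and 4 were highest, within overlapping groups. For Dusp6 the difference was 0.09 on the log2 scale (SE 0.12, 95% interval -0.17 to 0.36), with an adjusted p of 0.977 by edgeR, and with a sample left out it ranged from 0.0035 without LPS 2 to 0.15 without LPS 1.

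Dusp2 and Dusp4 encode nuclear phosphatases, the former most abundant in activated immune cells and the latter induced by ERK signalling in many cells. Dusp2 had a CPM of 11.9, 15.2, 15.7 and 8.50 in LPS samples and 13.1, 11.8, 11.9 and 8.50 in LPS + Tan samples. It was lowest in the sample numbered 4 of each group, and the LPS + Tan values lay within the LPS range apart from a lowest value that was the same to 3 digits. Its log2 fold change was -0.18 (SE 0.20, adjusted p 0.967 by edgeR), between -0.33 without LPS 4 and -0.064 without LPS + Tan 4. Dusp4 had a CPM of 17.1, 14.4, 14.5 and 13.8 in LPS and 13.6, 18.9, 15.5 and 15.3 in LPS + Tan. LPS + Tan 2 was highest and LPS + Tan 1 lowest of the 8, so that the groups overlapped. Its log2 fold change of 0.08 (SE 0.12, adjusted p 0.979 by edgeR) was -0.014 without LPS + Tan 2.

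Dusp10 and Dusp16 encode phosphatases that act mainly on JNK and p38. The CPM of Dusp10 was 9.69, 9.57, 8.94 and 12.7 in LPS samples and 6.37, 8.16, 7.34 and 14.9 in LPS + Tan samples. LPS + Tan 1, 2 and 3 were below all LPS samples, and LPS + Tan 4 was above all of them. On the log2 scale the difference was -0.16 (SE 0.25, adjusted p 0.982 by edgeR). Without LPS + Tan 4 it was -0.49 (unadjusted p 0.0134 by edgeR), but without LPS + Tan 1, LPS 4 or LPS + Tan 3 it was -0.016, -0.033 or -0.063. Dusp16 had a CPM of 195, 157, 214 and 153 in LPS and 203, 157, 170.2 and 153 in LPS + Tan. LPS 1, LPS 3 and LPS + Tan 1 were the high samples, and all LPS + Tan values lay within the LPS range. A log2 fold change of -0.07 (SE 0.13, adjusted p 0.982 by edgeR) was 0.03 without LPS 3. Of the 6 phosphatases, 3 had negative and 3 positive log2 fold changes, with a median of 0.0059.

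The spread within groups set what could be seen for each gene. The coefficient of variation of CPM in the LPS group was 5.77% for Zfp36, 8.15% for Dusp5 and 26.1% for Dusp2. In the LPS + Tan group it was 10.7% for Zfp36, 48.5% for Dusp5 and 42.1% for Dusp10. In CPM, LPS 3 was the highest of the 8 samples for 6 members (Dusp2, Dusp16 and the 4 decay factors), but in FPKM, which has no TMM scaling, for 3 (Zfp36, Zfp36l1 and Zc3h12a). LPS + Tan 1 was the lowest for 4 members in CPM (Dusp4, Dusp5, Dusp10 and Zc3h12a) and for 3 in FPKM, the same without Dusp4.

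**Figure D2:**
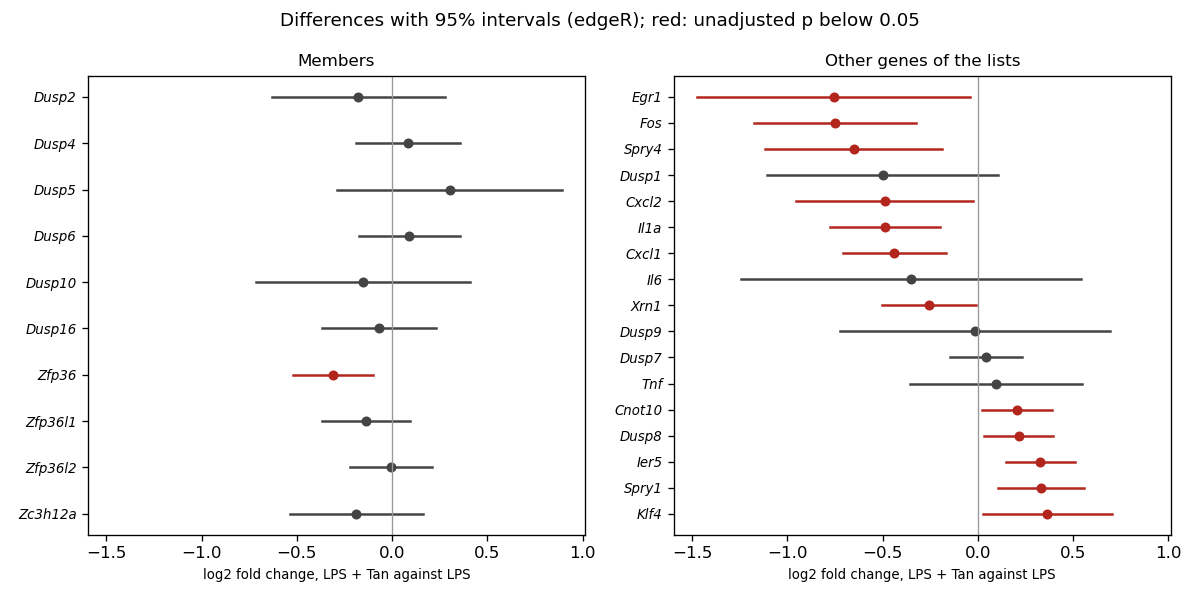
Log2 fold changes of LPS + Tan against LPS (points) with 95% intervals (lines) by edgeR, for the 10 members and for other named genes of the pathway lists. Red marks an unadjusted p below 0.05, and the grey line marks no difference. Zfp36 is the red point among the members, at -0.31, and the sign of Zfp36l2, at -0.0058, depends on the scaling.

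Levels were compared between genes in FPKM, which is per length. The median FPKM over the 8 samples was 118 for Zfp36l1, 81.3 for Zfp36, 48.2 for Dusp6 and 31.3 for Dusp16. Lower FPKM medians were found for Zfp36l2 (26.1), Zc3h12a (22.7), Dusp2 (7.56), Dusp5 (7.37), Dusp4 (6.06) and Dusp10 (1.08). In this order, the FPKM ranges of Zfp36l1 (106 to 134), Zfp36 (68.4 to 91.9) and Dusp6 (38.93 to 58.2) did not overlap. The FPKM of Dusp16 (27.6 to 38.88) ended just below that of Dusp6 and overlapped those of Zfp36l2 (23.1 to 29.3) and Zc3h12a (20.6 to 32.3), so that these neighbours were not separated beyond their spread. The same held for the FPKM of Dusp2 (5.10 to 9.49), Dusp5 (6.28 to 15.6) and Dusp4 (5.63 to 7.81), while Dusp10 (0.783 to 1.72) was lowest in FPKM with no overlap. This place of Dusp10 rests on the gene length in the deposited FPKM. That length was 8386 bases for Dusp10, 1618 for Dusp2, 1815 for Dusp5 and 2427 for Dusp4. Their median CPM, which is not per length, was 9.26, 11.9, 13.6 and 14.9 in the same order.

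The other genes of the pathway were taken from 7 lists of 119 tested genes, of which 12 (10.1%, against 5.12% of all genes) had an unadjusted p below 0.05 in edgeR, 7 lower and 5 higher in LPS + Tan, and 0 an adjusted p below 0.05. The lists were chosen with earlier results of these data known, so that this share is no result about the lists as a set. DESeq2, limma-voom and the likelihood ratio test of edgeR also called 0 of the 119 after adjustment, and the lowest adjusted p was 0.850 by the quasi-likelihood test, shared by Fos, Ier5 and Il1a, and 0.0750 by DESeq2, for Fos. The 12 became 6 without LPS 2, 6 without LPS 3 and 26 without LPS + Tan 2, and the count lay between 8 and 14 without any of the other 5 samples. The 804 of the whole table became 656, 587 and 1626 without LPS 2, LPS 3 and LPS + Tan 2, but the counts did not always move together, as without LPS + Tan 4 the lists had 14 genes and all genes together 1488. Of the 12 genes, 6 (Spry1, Spry4, Fos, Ier5, Il1a and Cxcl1) had an unadjusted p below 0.05 in all alternatives. Of the 26 MAPK cascade kinases, among them Map3k8, Mapk14 and Mapkapk2, 0 passed the unadjusted threshold, and their median log2 fold change was 0.0028. Of the 15 other RNA-binding factors of AU-rich and stem-loop elements, 0 passed it, with a median of 0.04.

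Among the 4 other MAPK phosphatases, Dusp1, the phosphatase induced early by stress and LPS, had a CPM of 419, 457, 536 and 525 in LPS samples and 205, 513, 225 and 426 in LPS + Tan samples. LPS + Tan 1 and 3 were far below the LPS group, and LPS + Tan 2 and 4 were inside it. The log2 fold change was -0.50 (SE 0.27, unadjusted p 0.0957 by edgeR) and became -0.76 without LPS + Tan 2, with a p of 0.0110, but -0.32 without LPS + Tan 1 and -0.34 without LPS + Tan 3, with p-values of 0.222 and 0.231. Dusp8, a phosphatase of JNK and p38, had a CPM of 22.9, 20.9, 19.6 and 22.0 in LPS and 24.7, 25.3, 25.3 and 23.7 in LPS + Tan. All LPS + Tan samples were above all LPS samples. The log2 fold change was 0.21 (SE 0.081, unadjusted p 0.0249 by edgeR). The p was below 0.05 in 14 of the 19 alternatives, and among those above it were the likelihood ratio test and the analyses without LPS 2, LPS 3 or LPS + Tan 3, with a p of at most 0.0716. The ERK phosphatases Dusp7 and Dusp9 differed by 0.04 (SE 0.085) and -0.017 (SE 0.32) on the log2 scale, with signs that turned without LPS + Tan 4 for Dusp7 and without scaling factors or on FPKM, and without LPS 2, LPS + Tan 2 or LPS + Tan 3, for Dusp9. The CPM of Dusp9 did not exceed 0.583 in any sample.

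Of 10 tested genes of ERK feedback and output, 1 was lower and 1 higher at the unadjusted threshold (2.25% and 2.87% of all genes), and both were Sprouty genes, whose products restrain receptor signalling to ERK. Spry4 had a CPM of 201, 164, 177 and 189 in LPS samples and 87.0, 179, 90.8 and 109 in LPS + Tan samples. LPS + Tan 1, 3 and 4 were below the LPS group and LPS + Tan 2 was inside it, with a log2 fold change of -0.65 (SE 0.21, unadjusted p 0.0109 by edgeR). Spry1 had a CPM of 50.0, 44.5, 39.9 and 53.8 in LPS and 60.5, 58.7, 54.7 and 62.9 in LPS + Tan. All LPS + Tan samples were above all LPS samples, and the log2 fold change was 0.33 (SE 0.10, unadjusted p 0.00823 by edgeR). Spry3 and Etv4 of this list were not tested.

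Immediate early genes, which like several members are transcribed within minutes of MAPK activation, had negative log2 fold changes in 13 of 17 cases, with a median of -0.20, and 2 were lower and 2 higher at the unadjusted threshold. Of all genes tested, 48.2% were negative, 2.25% lower and 2.87% higher at that threshold. Fos, a subunit of AP-1, had a CPM of 49.9, 71.8, 62.9 and 75.6 in LPS samples and 29.4, 51.2, 31.2 and 42.8 in LPS + Tan samples. Of the LPS + Tan samples, LPS + Tan 2 alone was above an LPS sample, and the log2 fold change was -0.75 (SE 0.19, unadjusted p 0.00270 by edgeR). The transcription factor gene Egr1 had a CPM of 55.2, 88.6, 95.4 and 100.3 in LPS and 35.3, 92.1, 39.0 and 34.4 in LPS + Tan. LPS + Tan 2 was again at the level of the LPS group, and the log2 fold change was -0.76 (SE 0.32, unadjusted p 0.0407 by edgeR), or -1.23 without that sample and -0.61 without LPS + Tan 4. The p of Egr1 was above 0.05, up to 0.108, in 6 of the 8 analyses with a sample left out, all but those without LPS 1 or LPS + Tan 2. The genes in the other direction were Ier5 (log2 fold change 0.33, unadjusted p 0.00238 by edgeR), with groups that did not overlap, and Klf4 (0.36, unadjusted p 0.0382), whose p was above 0.05 in 6 of the 8 analyses, all but those without LPS 4 or LPS + Tan 2.

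Of 27 mRNA decay enzymes and their partners, Xrn1, the exonuclease that degrades decapped mRNA, was lower and Cnot10, a subunit of the CCR4-NOT deadenylase, was higher at the unadjusted threshold, which 2.25% and 2.87% of all genes passed in these directions. Xrn1 had a CPM of 67.0, 80.7, 78.1 and 77.7 in LPS samples and 65.5, 69.0, 68.5 and 50.7 in LPS + Tan samples. LPS 1 lay among the LPS + Tan samples, of which LPS + Tan 4 was the lowest. The log2 fold changes were -0.26 for Xrn1 (SE 0.11, unadjusted p 0.0420 by edgeR) and 0.20 for Cnot10 (SE 0.083, unadjusted p 0.0338). Without LPS + Tan 4 that of Xrn1 was -0.17. The p of Xrn1 stayed below 0.05 in 3 of the 8 analyses with a sample left out, those without LPS 1, LPS + Tan 2 or LPS + Tan 3, and was above it without scaling factors and on FPKM. That of Cnot10 also did so in 3 of the 8, those without LPS 4, LPS + Tan 1 or LPS + Tan 3, and over all 19 alternatives it was below 0.05 in 11, which do not include the likelihood ratio test or the analysis without a filter.

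Known target mRNAs of the decay factors made up a list of 23 genes, of which 20 were tested and Il12b, Il23a and Il2 were not. At the unadjusted threshold 3 were lower and 0 higher, with 13 negative and 7 positive log2 fold changes and a median of -0.16, against 2.25% lower, 2.87% higher and 48.2% negative among all genes. The cytokine Il1a had a CPM of 20.4, 14.1, 15.3 and 18.2 in LPS samples and 12.03, 13.1, 11.3 and 12.1 in LPS + Tan samples. All LPS + Tan samples were below all LPS samples, and the log2 fold change was -0.49 (SE 0.13, unadjusted p 0.00355 by edgeR). The neutrophil chemokine Cxcl1 had a CPM of 68.4, 78.5, 61.5 and 53.6 in LPS and 51.7, 50.1, 41.7 and 49.8 in LPS + Tan, with a log2 fold change of -0.44 (SE 0.12, unadjusted p 0.00474 by edgeR). The groups of Cxcl1 did not overlap in TMM-scaled CPM but did so without TMM and in FPKM, where LPS 4 was at 55.70 and LPS + Tan 1 at 55.77. Cxcl2, a chemokine of the same receptor, overlapped between the groups, with a log2 fold change of -0.49 (SE 0.21, unadjusted p 0.0412 by edgeR) whose p was below 0.05 only without LPS 4, LPS + Tan 2 or LPS + Tan 4 among the 8 analyses with a sample left out.

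The classic targets did not pass the threshold. Tnf had a CPM of 17.7, 14.1, 14.4 and 9.59 in LPS samples and 19.7, 11.7, 14.4 and 13.6 in LPS + Tan samples. LPS + Tan 1 was highest and LPS 4 lowest, and the log2 fold change of 0.09 (SE 0.20) became -0.05 without LPS 4 and -0.074 without LPS + Tan 1. Il6 had a CPM of 2.53, 6.08, 7.47 and 4.93 in LPS and 2.44, 7.63, 3.28 and 3.12 in LPS + Tan. LPS + Tan 2 was the highest of all 8 samples, and the log2 fold change was -0.35 (SE 0.40, unadjusted p 0.400 by edgeR), or -0.83 without it, with a p of 0.0309. It was -0.13 without LPS 3, -0.17 without LPS + Tan 1 and -0.24 without LPS + Tan 4.

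The nonamer TTATTTATT, the core to which ZFP36 proteins bind, was searched on the sense strand of the longest 3′ UTR of each gene in GENCODE M21 (GRCm38). It was present in 1122 of 14094 tested genes with an annotated 3′ UTR (7.96%). Among the 10 members, Zfp36, Zfp36l1 and Zfp36l2 each held 1 copy, and the 6 phosphatases and Zc3h12a held 0. Of the 23 target genes, 11 held it. Among the tested targets named above, Tnf held 5 copies, Cxcl2 4 and Cxcl1 2, while Il1a and Il6 held 0. Of other pathway genes named above, Dusp1 held 2 copies, and Dusp8, Xrn1 and Fos each held 1. Sites of the family genes and of 4 mRNAs named above are shown because the same element occurs in the factors, in 3 listed targets (Tnf, Cxcl1 and Cxcl2) and in Fos, which is not in the target list, on the strand of the mRNA and with the nonamer in capitals, of which the stretch of Tnf holds 4 copies that partly overlap and that of Cxcl2 holds 2. They lie in the 3′ UTR, at chr7:28376951-28376980 for Zfp36 (minus strand), chr12:80108167-80108196 for Zfp36l1 (minus), chr17:84184914-84184943 for Zfp36l2 (minus), chr17:35199674-35199703 for Tnf (minus), chr5:90892614-90892643 for Cxcl1 (plus), chr5:90905325-90905354 for Cxcl2 (plus) and chr12:85477102-85477131 for Fos (plus).
Zfp36: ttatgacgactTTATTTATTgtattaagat
Zfp36l1: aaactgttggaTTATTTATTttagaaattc
Zfp36l2: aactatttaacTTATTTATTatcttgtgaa
Tnf: ttaTTATTTATTTATTATTTATTTATTtgc
Cxcl1: tatttatgtatTTATTTATTccacaaagtg
Cxcl2: cTTATTTATTtatctatgtatTTATTTATT
Fos: gtgttttcaatTTATTTATTaagatggatt

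Over all tested genes, the difference between the groups was also compared by copies of the nonamer. The median log2 fold change was 0.0055 in 12972 genes without a copy, 0.0025 in 879 genes with 1 copy and -0.0011 in 243 genes with 2 or more copies. Of the genes with 2 or more copies, 3.29% were lower and 2.06% higher at the unadjusted threshold, which is 8 and 5 genes. With 1 copy 3.07% were lower and 3.41% higher, and without a copy 2.20% and 2.92%. The median length of the 3′ UTR was 2699 bases with 2 or more copies, 2234 with 1 copy and 1073 without a copy, and its part in these shares was not tested. Of the 9 tested targets with the nonamer, 6 had a negative log2 fold change, with a median of -0.14, and of the 11 without it 7 did, with a median of -0.17, against 48.2% negative among all genes tested.

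Promoters of 8 members were matched in RefSeq (GRCm38.p6), from 250 bases before to 50 bases after the start of the gene, the others being Dusp4 and Zfp36l2. The sequence motifs searched on both strands were the cyclic AMP response element (TGACGTCA), AP-1 (TGANTCA), the CArG box of serum response factor and the NF-kB motif. They were present in 1.79%, 7.81%, 1.63% and 4.51% of 32851 promoters. Among the 8, a CArG box was found in Zfp36 and Dusp5 and an AP-1 motif in Zfp36l1, and no member promoter held the other motifs in this window. The CArG box of Zfp36 lies 58 to 49 bases before the start of the gene in RefSeq, and the 2 adjacent CArG boxes of Dusp5 lie 82 to 63 bases before it. These windows are shown because the CArG box is a motif of immediate early genes and occurs in both arms, a phosphatase and a decay factor, with the boxes in capitals. The window of Zfp36 is at chr7:28379267-28379296 on the minus strand and that of Dusp5 at chr19:53529058-53529087 on the plus strand. A match of letters is a description, and the differences between groups of these genes were -0.31 and 0.30 on the log2 scale, as given above.
Zfp36: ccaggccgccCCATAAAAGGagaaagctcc
Dusp5: aatacCCATATTTGGCCTTATATGGgcact

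Over the 8 samples, 5 pairs of genes were compared by the correlation of log2 CPM, with exact permutation p-values adjusted over the 5. Zfp36 and Fos had a Pearson r of 0.80 (exact p = 0.0205, adjusted 0.102) and a Spearman rho of 0.64 (exact p = 0.0962). The r was 0.73 without LPS + Tan 1, 0.71 without LPS + Tan 3 and 0.30 without both, the samples farthest from the median of Zfp36, whose removal narrows its range. Deviations from the group means gave 0.40 (permutation p = 0.315). The pairings used for deviations crossed the groups, so that their p-values are approximate. For Zfp36l1 and Zfp36l2 the r was 0.66 (exact p = 0.0743, adjusted 0.186) and rho 0.69 (exact p = 0.0694), with an r of 0.50 without the 2 farthest samples and 0.75 for the deviations (permutation p = 0.0379, adjusted 0.190). With a sample left out, the r of this pair lay between 0.41 (without LPS 3) and 0.79 (without LPS 1). For Zfp36 and Zc3h12a the r was 0.59 (exact p = 0.119, adjusted 0.199) and rho 0.71 (exact p = 0.0576), with an r of 0.22 without the 2 farthest and 0.52 for the deviations (permutation p = 0.199). The ERK phosphatases Dusp5 and Dusp6 gave an r of -0.35 (exact p = 0.375, adjusted 0.469) and a rho of -0.45 (exact p = 0.267), with -0.23 without the 2 farthest and -0.46 for the deviations (permutation p = 0.269). With a sample left out, their r ranged from -0.62 without LPS 2 to -0.21 without LPS + Tan 1. Dusp6 and Spry4 gave an r of -0.29 (exact p and adjusted p = 0.482) and a rho of -0.10 (exact p = 0.840), with a turned sign of 0.15 without the 2 farthest and -0.13 for the deviations (permutation p = 0.787). The r also depended on scaling. In CPM without TMM factors it was 0.78 for Zfp36 and Fos and 0.47 for Zfp36l1 and Zfp36l2. It was then 0.48 for Zfp36 and Zc3h12a, -0.35 for Dusp5 and Dusp6 and -0.47 for Dusp6 and Spry4.

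The gene whose log2 CPM was most alike over the 8 samples was sought for each member among 11245 genes with a mean CPM of at least 5. For the decay factors these were Ninj1 for Zfp36 (Pearson r 0.98), Zfp869 for Zfp36l1 (0.99), Armc5 for Zfp36l2 (0.99) and Cpne8 for Zc3h12a (0.98). For the phosphatases they were E2f3 for Dusp2 (0.97), Xpnpep2 for Dusp4 (0.94), LOC118568705 for Dusp5 (0.99), Ppp1r2 for Dusp6 (0.98), Serpinb9 for Dusp10 (0.99) and Stab1 for Dusp16 (0.98). As the best of 11245 over 8 samples, such values are descriptions of likeness only. An r above 0.9 was reached by 122 genes with Zc3h12a, 110 with Dusp10, 74 with Zfp36l1 and 47 with Zfp36, and by 4 to 22 genes with each of the other 6 members.

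Markers of the cell types of lung were summed in each sample. The 10 neutrophil markers, led by S100a9, summed to a CPM of 5280.3, 4526, 6033 and 5434 in LPS samples and 5998, 4227, 5627 and 5643 in LPS + Tan samples. The groups overlapped (two-sided exact permutation p = 0.886), LPS + Tan 2 was lowest and LPS 3 highest, with 8 positive and 2 negative log2 fold changes (median 0.07). The 12 macrophage and monocyte markers, led by Chil3, summed to 2653, 2617, 1651 and 1759 in LPS and 2346, 2258, 1702 and 2710.1 in LPS + Tan, with 11 positive and 1 negative log2 fold changes (median 0.10), and 1 of them, C1qa, was higher at the unadjusted threshold. Among all genes tested, 2.87% were higher at that threshold and 48.2% had negative log2 fold changes. The 11 T and NK cell markers in the table, led by Gzma, summed to 155, 233, 120.3 and 143 in LPS and 105, 262, 187 and 135 in LPS + Tan, with LPS + Tan 2 highest and 7 positive and 4 negative log2 fold changes (median 0.08). LPS + Tan 2, the sample with the high Dusp5, was thus at the edge of the neutrophil and of the T and NK cell sums, and the part of these cells in its values was not tested.

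Of the structural cells, the 10 endothelial markers, led by Cldn5, summed to a CPM of 4630 ± 511 in LPS and 4870.2 ± 116 in LPS + Tan (SD, n = 4), with 6 positive and 4 negative log2 fold changes (median 0.09), of which 2, Kdr and Tek, were higher and 0 lower at the unadjusted threshold, against 2.87% and 2.25% of all genes, of which 48.2% were negative. The 14 epithelial markers, led by Scgb1a1, summed to 26401 ± 4182 and 24734 ± 4758, with 11 negative and 3 positive log2 fold changes (median -0.064), and the 11 fibroblast and smooth muscle markers, led by Dcn, to 3360.2 ± 272 and 3035 ± 245, with 7 negative and 4 positive (median -0.082). The 7 B cell markers, led by Cd79b, summed to 35.9 ± 7.09 and 31.6 ± 5.18, with 6 negative and 1 positive (median -0.29), and the 6 red cell markers, led by Hbb-bs, to 2602 ± 862 and 1886 ± 387, with 6 negative and 0 positive (median -0.51). In the epithelial, fibroblast, B cell and red cell lists 0 genes passed the unadjusted threshold. All 8 sums overlapped between the groups, the lowest exact permutation p was 0.200, and no marker in the table, which lacks Trac, had a median count of 0.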

How the data were processed

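The authors deposited raw read counts per gene and FPKM values for 8 lung samples. For the 10 members, the deposited FPKM equal the counts over the total count and a fixed gene length, to within 0.000606% between samples. The submitters' notes name GRCm38 and mm10, while the aligner, the annotation and the counting tool are not named in the methods, labels or headers. Differences of LPS + Tan from LPS were tested on counts by the quasi-likelihood method of edgeR 4.0.16 (R 4.3.3, filterByExpr, TMM, no covariate), with Benjamini-Hochberg adjustment over 15706 genes. CPM are counts per 1000000 library counts after TMM, with 0.5 added before log2. The standard error was the log2 fold change over the square root of the F statistic. Depth, between 38895654 and 39931970 counts per sample, limited precision less than the spread between samples. Median squared deviations of counts between samples of a group were 8.61 to 28.2 times sampling noise. No library was thus repeated within a group. Coordinates of genes and promoters are from RefSeq.

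The members and lists were chosen with earlier results of these data known. Named genes were all members, up to 3 genes per direction and pathway list with the lowest unadjusted p if below 0.05, Dusp1, Dusp7, Dusp8, Dusp9, Tnf and Il6, the most abundant gene of each marker list and the gene most alike each member. C1qa, Kdr, Tek and the examples of kinases were named after their values were seen. The pair correlations used all 40320 pairings of the 8 samples, also for deviations from group means, and marker sums all 70 arrangements. Alternatives were DESeq2 1.42.0, the likelihood ratio test, limma 3.58.1 (voom, and log2 of FPKM + 1 or + 0.1), RLE, upper-quartile or no scaling, all genes with any count, genes with 1 CPM or more in 4 samples, a block for the replicate number, and leaving out each sample. The scripts were tested on simulated data.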

Additional observations from a re-analysis of the deposited data

Results flagged for a closer look

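Of 70 groups of 4 values, 2 had a sample at a distance from the rest, fewer than the 3.5 that chance gives at 1 in 20. Egr1 in LPS + Tan had its highest sample, LPS + Tan 2, apart from the others by a gap of 0.872 of the range of log2 CPM. Xrn1 in LPS + Tan had its lowest sample, LPS + Tan 4, apart by 0.83 of the range. No value of the 10 members met this criterion.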

How the results depend on the processing

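Under all 19 alternatives the adjusted p of each member stayed above 0.05, and 6 of the 10 members never turned in sign. The count of members past the unadjusted threshold was 1 in each alternative with all samples, and 1 to 2 when a sample was left out. The pathway list count of 12 was 6 to 26 with a sample left out. With the replicate number as a block (replicate block) the counts were 1 and 16, and the log2 fold change of Zfp36 was -0.31. The deviations of samples with the same number correlated at 0.16, -0.05, -0.16 and 0.04, so that the numbers do not pair the samples. Of the named genes, the block moved 3 across the unadjusted threshold by edgeR, Dusp1 (log2 fold change -0.60, p 0.0342), Dusp8 (p 0.0587) and Cnot10 (p 0.0517). Genes past the unadjusted threshold over the whole table numbered 804, against 1083 by DESeq2, 1200 without a filter, 480 without LPS + Tan 1, 1626 without LPS + Tan 2 and 1488 without LPS + Tan 4. Signs turned, for reasons that were not tested, as follows. The log2 fold change of Zfp36l2 was 0.0035 with upper-quartile scaling, 0.036 without scaling factors, 0.037 on FPKM with 1 added and 0.039 with 0.1 added, and that of Dusp9 was 0.023, 0.0030 and 0.011 in the last 3 of these. With a sample left out, log2 fold changes ranged from -0.014 to 0.15 for Dusp4, -0.093 to 0.45 for Dusp5, -0.17 to 0.026 for Dusp16, -0.060 to 0.059 for Zfp36l2, -0.017 to 0.075 for Dusp7, -0.15 to 0.12 for Dusp9 and -0.074 to 0.23 for Tnf. The correlation of Dusp6 with Spry4 was 0.15 without the 2 farthest samples and -0.52 to 0.016 with a sample left out. Dusp9 was not tested under the filter of 1 CPM. Depth limits the precision of Dusp9 more than that of the members, which had at least 259 reads in each sample.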
